A study of Mus musculus with 3 samples.

Results

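The Fc gamma and Fc-like receptor genes described here are Fcgr1, Fcgr2b, Fcgr3, Fcgrt and Fcrls. They are 5 of the 12393 genes with a probe set on the array that is annotated to a single gene symbol, and they were taken by name with every such probe set, 8 in all. Signals were measured on 3 Affymetrix arrays, 1 per time, in bone marrow cell cultures of the mouse strain C57/BL6. All cultures were grown with human M-CSF (hM-CSF, a macrophage growth factor) at 50 ng/ml for 3 days, which yields macrophages, and then received human RANKL (hRANKL, the cytokine that drives macrophages to become bone-resorbing osteoclasts) at 150 ng/ml. To follow expression over osteoclast formation, the cells were taken at 0 h (labelled precursor), 24 h (differentiating precursor) and 72 h (osteoclast). Because the labels name no culture that went on for 24 or 72 h in M-CSF alone, RANKL and time in culture cannot be told apart.

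Fc receptors bind the constant part of antibodies. In the mouse, Fcgr1 encodes the high-affinity receptor for IgG and Fcgr3 a low-affinity one, and both signal through the Fc receptor gamma chain, encoded by Fcer1g, to start phagocytosis and cytokine release. Fcgr2b encodes the inhibitory IgG receptor, which recruits the lipid phosphatase SHIP1 (Inpp5d) and damps those signals. Fcgrt encodes the heavy chain of the neonatal Fc receptor, which pairs with beta-2-microglobulin (B2m) in endosomes and returns IgG and albumin to the outside of the cell. Fcrls encodes an Fc receptor-like protein with a scavenger receptor domain, known as a marker of microglia in mice. The gamma chain is also used by co-stimulatory receptors of osteoclasts such as OSCAR.

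The promoters of the 4 genes with the largest differences at 72 h are shown because Fcgr2b and Fcgr3 are encoded close together yet differed in timing. Each sequence runs from 250 bases before to 30 bases from the annotated start of transcription (RefSeq, GRCm38.p6, all on the minus strand, read in the direction of transcription). The windows are chr3:96293940-96294219 for Fcgr1, chr1:171059374-171059653 for Fcgr3, chr3:87263495-87263774 for Fcrls and chr1:170976042-170976321 for Fcgr2b. All 5 genes had an entry, and Fcgr3 had a second start 9 bases further on, which is not shown. Capitals mark matches, on either strand, to the core of the PU.1 motif (GAGGAA, for the myeloid factor encoded by Spi1) and to the GAS motif of STAT factors (TTCNNNGAA).
Fcgr1: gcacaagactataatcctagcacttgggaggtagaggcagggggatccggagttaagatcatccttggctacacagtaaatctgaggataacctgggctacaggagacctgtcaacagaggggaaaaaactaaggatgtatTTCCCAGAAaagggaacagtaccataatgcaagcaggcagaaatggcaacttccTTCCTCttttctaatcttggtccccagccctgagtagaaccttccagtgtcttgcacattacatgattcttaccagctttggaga
Fcgr3: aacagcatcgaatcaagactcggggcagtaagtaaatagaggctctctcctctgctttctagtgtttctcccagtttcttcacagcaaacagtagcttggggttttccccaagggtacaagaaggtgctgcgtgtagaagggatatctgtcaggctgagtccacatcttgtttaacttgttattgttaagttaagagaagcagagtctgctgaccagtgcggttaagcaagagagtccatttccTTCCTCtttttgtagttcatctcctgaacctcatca
Fcrls: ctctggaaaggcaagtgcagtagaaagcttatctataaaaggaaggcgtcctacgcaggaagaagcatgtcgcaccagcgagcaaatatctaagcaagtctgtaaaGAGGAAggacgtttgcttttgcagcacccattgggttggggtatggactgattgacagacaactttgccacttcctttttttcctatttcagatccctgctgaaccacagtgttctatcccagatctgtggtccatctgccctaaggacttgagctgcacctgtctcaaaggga
Fcgr2b: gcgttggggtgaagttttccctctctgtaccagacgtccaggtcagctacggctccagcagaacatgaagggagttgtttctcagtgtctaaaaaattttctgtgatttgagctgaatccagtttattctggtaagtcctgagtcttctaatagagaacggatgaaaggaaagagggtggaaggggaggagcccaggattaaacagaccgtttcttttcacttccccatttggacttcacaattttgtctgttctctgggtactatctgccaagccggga
The PU.1 core was present once each in the Fcgr1, Fcgr3 and Fcrls windows, beginning at base -55, -6 and -144 from the start, and these letters were absent from the Fcgr2b and Fcgrt windows. Of 32851 RefSeq promoter windows of this length, 26.0% held it. The GAS motif was present in the Fcgr1 window, beginning at base -109, and in 7.83% of all windows. A 9-base part of the interferon-stimulated response element (GAAANNGAA) was in none of the 5 windows and in 8.06% of all windows. The 3 motifs did not overlap each other in these windows. A match is a description of the letters and does not show that a factor bound there.

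All values below are scaled signals in arbitrary units. Median signals of the deposited arrays differed (36.7, 60.9 and 62.7 at 0, 24 and 72 h), so each array was centred on its own median log2 signal over all gene probe sets. Scaled signals below a floor of 29.6 (the 40th percentile over all arrays) were set to that floor. Calls were made at a log2 difference of 1 or more in either direction, which is 2-fold. With 1 array per time the differences have no replicate check and no test. The only error at hand is technical, the spread between 2 probe sets of the same gene, taken over 2702 to 2785 genes. On the log2 scale it was 0.41 for the first day, 0.36 for the step from 24 to 72 h and 0.49 over the whole course. The spread between cultures is not part of it, and the precision is limited by the number of arrays. All 8 probe sets of the 5 receptor genes were above the floor on all 3 arrays. In RNA from a whole culture, fewer cells of a type and less RNA per cell cannot be told apart.

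The labelled change of cell type was visible in marker genes. Of 8 osteoclast markers with a probe set, 8 were called higher at 72 h against 0 h, among them Ctsk and Acp5. Of 10 macrophage markers, 6 were lower and 1 higher in that comparison, although Csf1r and Lyz2 differed by log2 values of only -0.23 and -0.73. Among all measured genes 12.8% were lower and 12.5% higher at 72 h against 0 h. Neutrophil and precursor markers were present at the start, with a summed signal of 19030 at 0 h, 13116 at 24 h and 1378 at 72 h. Stromal markers had summed signals of 2265, 2615 and 7775 at 0, 24 and 72 h. For B cells 4 of 7 markers, and for mast cells 6 of 7, were at or below the floor on every array.

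**Figure D1:**
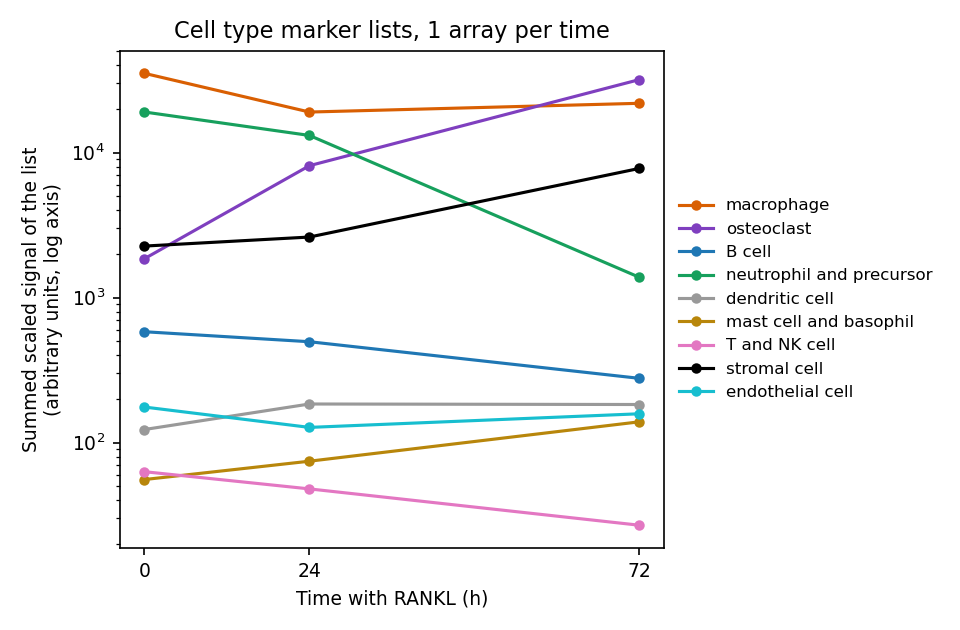
Summed scaled signal (log axis) of each cell type marker list at 0, 24 and 72 h of RANKL, 1 array per time, with 1 line per list. The neutrophil and precursor list was at 19030, 13116 and 1378 and the osteoclast list at 1853, 8117 and 31842.

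After 24 h of RANKL, transcripts of all 5 receptor genes were called lower than at 0 h and none higher. Fcrls, Fcgr1 and Fcgr3 were 19.7-fold, 11.8-fold and 10.7-fold lower, whereas Fcgrt and Fcgr2b were 2.25-fold and 2.16-fold lower. The median log2 difference over the 5 genes was -3.42, against 0.12 over all 8439 measured genes. In this comparison 9.22% of all measured genes were called lower and 13.2% higher. On the deposited scale, without centring, 3 of the 5 were called lower, and Fcgrt and Fcgr2b then had log2 differences of -0.44 and -0.38.

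After 72 h, 4 of the 5 genes were called lower than at 0 h and none higher, with a median log2 difference of -3.34 against -0.01 over all 8558 measured genes. Fcrls was 59.9-fold, Fcgr1 11.6-fold, Fcgr3 10.1-fold and Fcgr2b 7.30-fold lower, and Fcgrt was 1.96-fold below its 0 h signal, just inside the 2-fold limit. Among all measured genes 12.8% were called lower and 12.5% higher. Between 24 and 72 h, 2 of the 5 genes, Fcgr2b and Fcrls, were called lower (3.38-fold and 3.05-fold) and none higher, where 10.0% of 8391 measured genes were called lower and 6.92% higher.

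**Figure D2:**
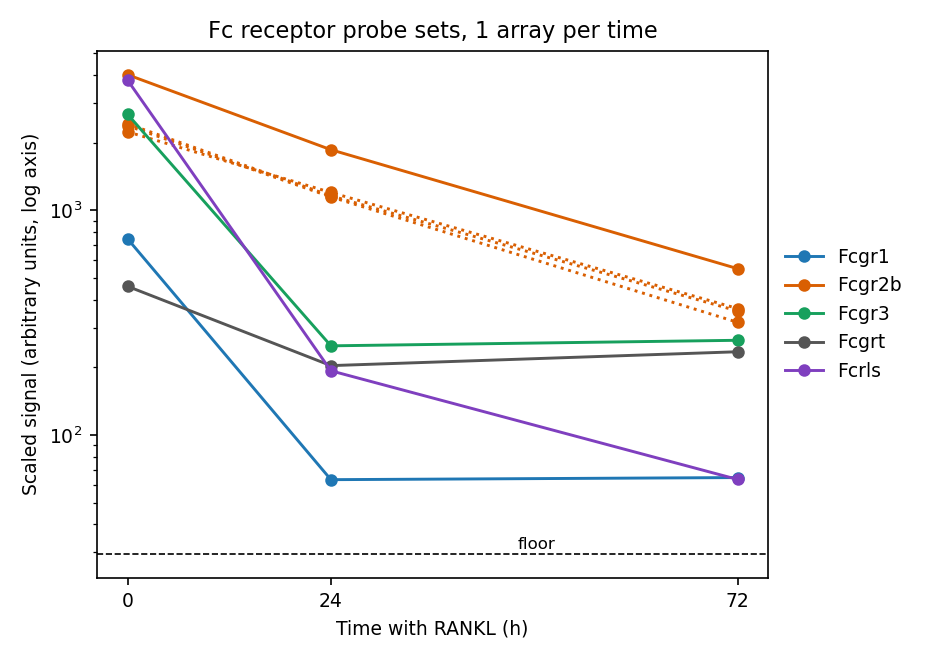
Scaled signal (log axis) of the 8 probe sets of the 5 receptor genes at 0, 24 and 72 h of RANKL, 1 array per time. Solid lines are the probe set with the highest mean signal of each gene and dotted lines the other 3 probe sets of Fcgr2b. The lines of Fcgr1 and Fcgr3 drop by 24 h and are then level, and those of Fcgr2b drop further between 24 and 72 h.

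Of the activating receptors, Fcgr1 (probe set 1417876_at) had signals of 747 at 0 h, 63.2 at 24 h and 64.6 at 72 h. Signals on the 24 h and 72 h arrays were nearly equal and both far below the 0 h array. Its log2 difference was -3.56 at 24 h, 8.67 times the technical error, and it ranked 16th from the lowest among the 7455 genes above the floor on both arrays. Between 24 and 72 h it differed by 0.03 on the log2 scale, within the technical error. Its place among all genes of an array, a value that scaling does not touch, was at the 91.3 percentile at 0 h, 47.7 at 24 h and 49.4 at 72 h.

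Fcgr3 (1448620_at) had signals of 2677 at 0 h, 249 at 24 h and 264 at 72 h. As with Fcgr1, the 2 later arrays lay close together and far below the first. The log2 difference was -3.42 at 24 h and -3.34 at 72 h, against 0 h, and 0.08 between 24 and 72 h. Its percentiles at 0, 24 and 72 h were 98.6, 72.1 and 75.7. Fcgr1 and Fcgr3 differed from each other by log2 values of 0.05 to 0.19 in size over the 3 comparisons, less than the technical error of a difference between genes (0.51 to 0.70). A shortfall of that error does not show that the 2 genes moved alike.

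The inhibitory receptor Fcgr2b was measured by 4 probe sets. The brightest (1435477_s_at) had signals of 4013 at 0 h, 1860 at 24 h and 550 at 72 h, stepping down at each time. The others had 2426, 1159 and 356 (1435476_a_at), 2236, 1200 and 365 (1451941_a_at), and 2379, 1147 and 317 (1455332_x_at) at 0, 24 and 72 h. All 4 gave the same order of the arrays. However, 1435477_s_at, 1435476_a_at and 1455332_x_at were designed from the same sequence, and only 1451941_a_at from another. The log2 difference of the 4 at 24 h against 0 h was -1.03 ± 0.09 (mean and SD over 4 probe sets, which measure the same RNA and are not replicates). Of these, 1451941_a_at, at -0.90, did not reach 2-fold. Between 24 and 72 h it was -1.76 ± 0.07, and all 4 were at least 3.25-fold lower. All 4 probe sets carry a mark for matching several transcripts. Fcgr2b and Fcgr3 have closely similar extracellular coding sequences, so some signal may be shared between their probe sets, which was not tested.

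The timing of Fcgr2b differed from that of the activating receptors. At 24 h the Fcgr2b log2 difference exceeded that of Fcgr3 by 2.32 and that of Fcgr1 by 2.45 (technical error 0.58). That is a 4.98-fold and a 5.47-fold shift of the signals of Fcgr2b over those of Fcgr3 and Fcgr1 within 24 h, and such a shift does not change when each array is scaled by a single factor. Quantile normalization, which is not of that kind, gave 2.35 and 2.39. Between 24 and 72 h the order turned, with Fcgr2b at -1.84 relative to Fcgr3 and -1.79 relative to Fcgr1 (technical error 0.51). The turn is not a separate observation, because both steps use the same 24 h array with opposite sign. The shares present by 24 h, given below, rest on that array as well. Over the whole course the log2 differences of these receptors ended close together. That of Fcgr2b was above that of Fcgr3 by 0.47 and that of Fcgr1 by 0.66, each within the technical error of 0.70. The signals themselves did not end close together, at 550 for Fcgr2b, 264 for Fcgr3 and 64.6 for Fcgr1 at 72 h. By 24 h, 38.7% of the log2 difference of Fcgr2b at 72 h was present, against 101% for Fcgr1 and 102% for Fcgr3. With the floor at the 60th percentile Fcgr1 was below it on both later arrays, so its level course was not measured there. The Fcgr2b share was 18.1% on the deposited scale and 35.3% to 44.4% under the other 3 scalings. The late step of Fcgr2b fell in the same interval as that of the neutrophil and precursor markers. Of these, 9 of 10 were called lower at 72 h against 24 h (median log2 difference -3.10), where 10.0% of all measured genes were. The part of these markers in the late step was not tested. Of 7 B cell markers with a probe set, Cd79a, Ms4a1, Blk and Pax5 were below the floor at all times and Cd79b was above it at 0 h only. Blnk had signals of 354, 402 and 174 at 0, 24 and 72 h, 2.31-fold lower at 72 h against 24 h. Cd22 had 116, 27.1 and 49.6, at least 3.92-fold lower at 24 h against 0 h and not called between 24 and 72 h. The summed signal of the list was 582, 496 and 277 at 0, 24 and 72 h, and its part was not tested either.

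Fcrls (1448891_at) had signals of 3796 at 0 h, 193 at 24 h and 63.4 at 72 h, lower at each later time. Its log2 difference was -4.30 at 24 h and -5.90 at 72 h, against 0 h. Ranked only with genes that both arrays measured above the floor, it was 4th from the lowest of 7455 at 24 h and lowest of 7345 at 72 h, against 0 h. For genes at the floor at 72 h the difference is only a bound, and without the floor 8 measured genes had a lower value than Fcrls. Its percentiles on the arrays of 0, 24 and 72 h were 99.1, 66.7 and 49.0. The early drop differed from those of Fcgr1 and Fcgr3 by 0.74 and 0.87, under 2 technical errors, while the further step of -1.61 after 24 h set it apart from both by 1.64 and 1.69 (technical error 0.51). With the floor at the 60th percentile that step of Fcrls was -1.06, and Fcgr1 was not measured in that comparison.

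The neonatal receptor gene Fcgrt (1416978_at) had signals of 459 at 0 h, 204 at 24 h and 235 at 72 h. Both later arrays were below the first and differed from each other by a log2 value of 0.21, within the technical error. Its log2 difference was -1.17 at 24 h and -0.97 at 72 h, which ranked 522nd of 7455 and 941st of 7345 from the lowest in the same ranking. Its place at 72 h depended on the scaling. The 3 of 10 alternatives that called Fcgrt lower were all scalings. These were quantile normalization (-1.01), trimmed mean scaling (-1.09) and hybridization control scaling (-1.02), while the deposited scale gave -0.20. The alternatives that kept median centring did not call it lower, with -0.97 in each except -0.92 with the pseudocount. Fcgrt and Fcgr2b were close at 24 h, 0.06 apart, and differed by 1.96 between 24 and 72 h. Across the 10 pairs of receptor genes, 6 differed by more than 2 technical errors at 24 h against 0 h, 6 at 72 h against 24 h and 7 at 72 h against 0 h.

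**Figure D3:**
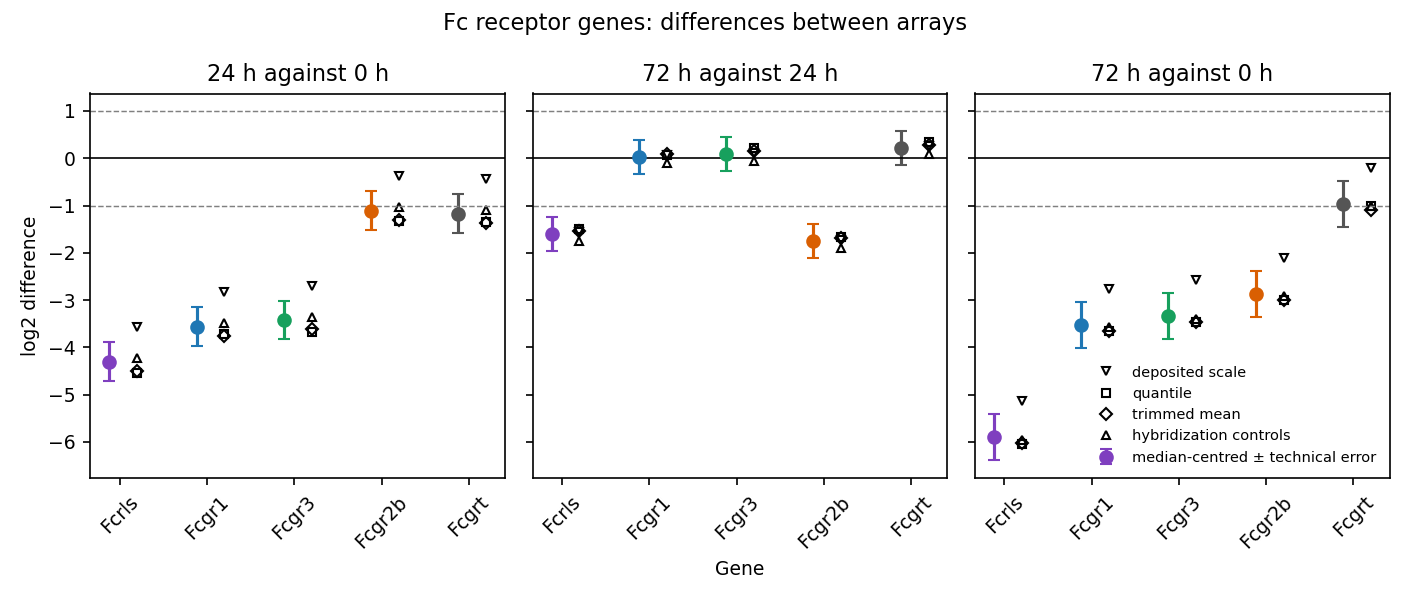
Log2 differences of the 5 receptor genes in the 3 comparisons. Filled points are median-centred values with the technical error as bars, open symbols are 4 other scalings, and dashed lines mark 2-fold. The deposited scale lies above the others in both comparisons with 0 h, and Fcgrt and Fcgr2b are within 2-fold at 24 h there (-0.44 and -0.38).

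Of 10 macrophage markers, 6 were called lower and none higher at 24 h against 0 h, the interval of the early drop of the receptors. In that comparison 9.22% of all measured genes were called lower. The list of macrophage markers had a median log2 difference of -1.58 and a summed signal of 35154 at 0 h, 19017 at 24 h and 21851 at 72 h. Csf1r, the M-CSF receptor, differed by -0.37 and Lyz2, a lysozyme, by -0.35 at 24 h, both within 2-fold. Cd68 differed by -0.23 at 24 h and was 2.34-fold higher at 72 h, against 0 h. Cd163 was below the floor at 24 and 72 h. The part of any change in cell make-up in the receptor signals was not tested.

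The genes most like each receptor over the 3 arrays, by the distance between their pairs of log2 differences from 0 h among 7159 genes above the floor throughout, were as follows. Klf2, a transcription factor, was the nearest to Fcgr1 and to Fcgr3 (distances 0.18 and 0.13), with signals of 384, 36.5 and 34.8 at 0, 24 and 72 h. Cyp27a1, a sterol hydroxylase, and the growth factor Igf1 followed for Fcgr1 (0.19 and 0.34), and Rab3il1 and Hal for Fcgr3 (0.30 and 0.32). The nearest to Fcgr2b were Abhd15, Sash3 and Celf2 (0.13, 0.15 and 0.20), with Sash3 at 675, 299 and 84.3. The nearest to Fcgrt were Oasl2, Ugcg and Slc25a45 (0.01, 0.04 and 0.04). Fcrls had no close match among these genes. Its nearest were the mannose receptor Mrc1 (0.75), the acute phase gene Saa3 (0.93) and the lectin Clec10a (1.33). Saa3 and Clec10a were near the floor at 72 h (29.96 and 32.5). So were Klf2 (36.5 and 34.8) and Cyp27a1 (32.2 and 30.5) at 24 and 72 h, and Abhd15 at 72 h (29.8). Genes below the floor on any array were left out, so a match among them could not be seen. Without the floor, 8 measured genes had a lower difference than Fcrls at 72 h against 0 h. With 3 arrays these distances describe 2 differences per gene and no more.

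Values on the deposited scale stand beside the lists below. On that scale 39.0% of all measured genes were higher and 3.71% lower at 24 h, and 35.0% and 5.33% at 72 h, against 0 h. With median centring 13.2% of all measured genes were higher and 9.22% lower at 24 h, and 12.5% and 12.8% at 72 h. The counts of the lists below stand against these shares. The partner chains of the receptors differed less than Fcgr1 and Fcgr3 in both comparisons with 0 h. Fcer1g, the gamma chain used by Fcgr1 and Fcgr3, had signals of 3190 at 0 h, 1784 at 24 h and 1694 at 72 h, with log2 differences from 0 h of -0.84 and -0.91, both within 2-fold. They passed 2-fold after quantile normalization (-1.08 and -1.15) and trimmed mean scaling (-1.04 at both times) and were -0.11 and -0.14 on the deposited scale. B2m, the light chain of the neonatal receptor, had 4763, 7339 and 4376 at 0, 24 and 72 h, with log2 differences from 0 h of 0.62 and -0.12. The first of these was -0.13 after quantile normalization and 1.35 on the deposited scale, past 2-fold there, and the second was 0.65 on the deposited scale.

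Among other Fc receptors, Trim21, a cytosolic antibody receptor, had signals of 240, 82.7 and 64.7 at 0, 24 and 72 h and was 2.90-fold lower at 24 h and 3.71-fold at 72 h. Fcgr4, another activating IgG receptor of the mouse, was near or below the floor, at 70.7, 20.4 and 52.8. Fcrl1, an Fc receptor-like gene of B cells, was likewise dim, at 68.8, 24.3 and 34.6. Both were at least 2.33-fold lower at 24 h, with the 24 h value at the floor, and neither was called at 72 h against 0 h. The IgE receptor chains Fcer1a and Ms4a2, the low-affinity IgE receptor Fcer2a, and Fcamr, Pigr and Fcrla were below the floor at all times. In this list of partners and other receptors 3 of 5 measured genes were lower at 24 h and 1 at 72 h, against 0 h, with none higher. After quantile normalization or trimmed mean scaling 4 were lower at 24 h and 3 at 72 h. On the deposited scale none were lower and 1 was higher at 24 h, where Trim21, Fcgr4 and Fcrl1 had log2 differences of -0.81, -0.77 and -0.73.

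Of the kinases and adaptors that act below the activating receptors, 4 of 16 measured genes were lower and none higher at 24 h, and 5 were lower and 1 higher at 72 h, against 0 h. Syk, the kinase that binds the phosphorylated gamma chain, was not called, at 1138, 732 and 1193. Pik3cd, a phosphoinositide 3-kinase subunit, had signals of 724, 194 and 100.4 and was 3.73-fold lower at 24 h and 7.20-fold at 72 h. At 72 h the ubiquitin ligase Cbl was 5.00-fold lower, the guanine nucleotide exchange factor Vav1 3.16-fold and the kinase Prkcd 2.24-fold, and the adaptor Lat2 was 2.50-fold higher. The list's median was -0.36 at 24 h and -0.22 at 72 h, and turned to 0.37 and 0.56 on the deposited scale, where 1 gene was lower and 3 higher at 24 h, and 2 lower and 1 higher at 72 h. Vav1 and Prkcd lost their 72 h calls there, at -0.89 and -0.39.

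Of the inhibitory phosphatases and adaptors, 2 of 11 measured genes were lower at 24 h, Pilra (2.80-fold) and Pirb (2.04-fold), both inhibitory receptors. At 72 h 2 were lower, Inpp5d and Dok2, an adaptor that restrains kinase signals (2.66-fold), and none were higher in either comparison. Inpp5d, the SHIP1 phosphatase recruited by the Fcgr2b protein, had signals of 1079 at 0 h, 563 at 24 h and 347 at 72 h, 3.11-fold lower at 72 h. With median centring neither of its 2 steps reached 2-fold. Their log2 differences were -0.94 at 24 h against 0 h and -0.70 at 72 h against 24 h. The first step passed 2-fold after quantile normalization (-1.18) and trimmed mean scaling (-1.14). Under both of these scalings 4 of the 11 genes were lower at 24 h. On the deposited scale the whole-course difference of Inpp5d was -0.87. The median was -0.51 at 24 h and -0.68 at 72 h, and 0.22 and 0.09 on the deposited scale, where none of the 11 were called lower in either comparison and Dok3, an adaptor, was higher at 72 h (1.03).

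In the list of the phagocytic cup and the oxidase, 3 of 15 measured genes were lower at 24 h and 4 at 72 h, against 0 h, with none and 1 higher. Of the oxidase genes, Cybb, the catalytic subunit, had signals of 649, 162 and 95.5 at 0, 24 and 72 h and was 6.79-fold lower at 72 h. Ncf1, a cytosolic oxidase subunit, was 7.51-fold lower at 72 h, whereas Cyba and Ncf4 differed by 0.39 and 0.41 on the log2 scale, and by 1.16 and 1.18 on the deposited scale, past 2-fold. Coro1a, an actin-binding protein of leukocytes, was 12.3-fold lower at 72 h and Rac2, a GTPase of the oxidase and the cytoskeleton, 2.65-fold higher. The list's median was -0.20 at 24 h and -0.26 at 72 h, and 0.53 and 0.51 on the deposited scale, where 2 genes were lower and 1 higher at 24 h, and 3 lower and 4 higher at 72 h.

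The list of interferon gamma and myeloid regulators of Fc receptor genes also held Il10ra and the TGF-beta receptor chains Tgfbr1 and Tgfbr2. Of its 14 measured genes, 6 were lower and none higher at 24 h, against 0 h. At 72 h, 7 were lower and 2 higher, against 0 h. Irf8, a myeloid interferon regulatory factor, had signals of 1184, 179 and 68.7 at 0, 24 and 72 h and was 6.62-fold lower at 24 h and 17.2-fold at 72 h. Cebpa and Cebpb, myeloid factors, were 8.58-fold and 4.23-fold lower at 72 h, and Il10ra, the interleukin 10 receptor chain, at least 9.23-fold at both times. Spi1, which encodes PU.1, had signals of 865, 1497 and 1717 and differed by 0.79 and 0.99, within 2-fold, while the deposited scale gave 1.52 and 1.76. The 2 chains of the interferon gamma receptor went opposite ways at 72 h, with Ifngr1 3.66-fold lower and Ifngr2 2.42-fold higher. The other gene called higher at 72 h was Tgfbr1 (4.45-fold). The list's median was -0.89 at 24 h and -0.97 at 72 h, and on the deposited scale -0.23 and -0.53, with 3 genes lower and 3 higher at 24 h, and 5 lower and 4 higher at 72 h.

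**Figure D4:**
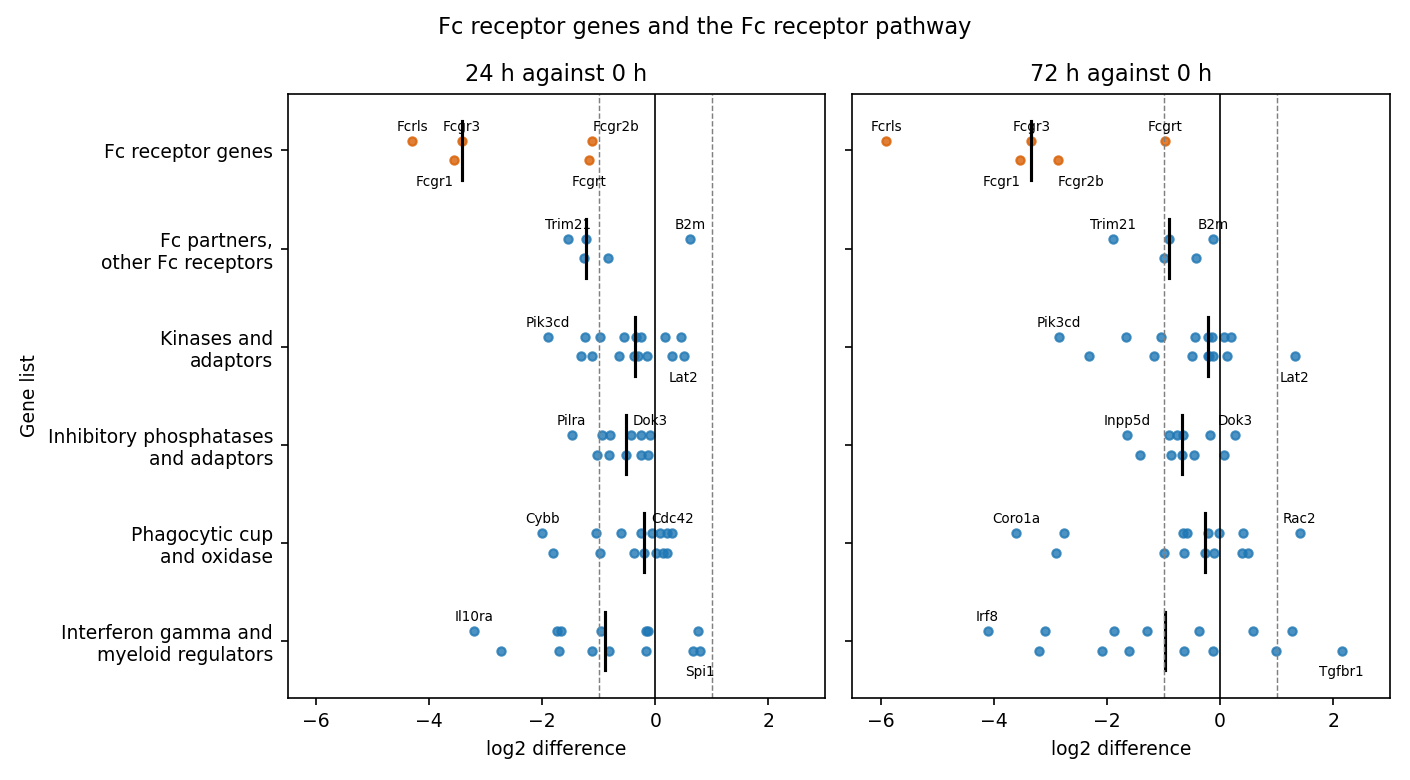
Log2 differences at 24 h against 0 h and at 72 h against 0 h for the 5 receptor genes (orange) and the measured genes of 5 related lists (blue), with black bars for medians and dashed lines at 2-fold. The lowest and highest gene of each list are named. The receptor medians are -3.42 and -3.34, and the list medians lie between -1.22 and -0.20. Both panels share the 0 h array.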

How the data were processed

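The deposited table held 1 microarray intensity per probe set and array on a linear scale, made by the authors with MAS5, per the submitters' processing notes; its version and scaling target are not given in the sources used here. Per the labels, 5 ug of total RNA gave biotin-labelled cRNA. Of 22690 probe sets, 64 were controls. The 2016 platform annotation named the genes. It held a single symbol for 20380 probe sets, more than 1 for 691 and no symbol for 1555. Among the first of these, 20351 could be tied to a RefSeq gene (GRCm38.p6) by identifier. From the table, log2 signals were centred on each array's median, raised to the floor, and differenced, with each gene taken by its brightest probe set (Python 3.11.15, numpy 2.4.6, pandas 2.3.3). Where 1 side was at the floor, a fold is a lower bound. The functions were tested on simulated data. With 1 array per time no test was possible. The members and the gene lists were chosen with earlier results of these data known. Named genes were all probe sets of the members, up to 4 called genes each way per list and comparison with any whose role is described, and the 3 genes nearest to each member. The alternatives were 4 other scalings, 3 other floors, a pseudocount of 16, the mean of probe sets, and leaving out multi-transcript probe sets.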

Additional observations from a re-analysis of the deposited data

How the results depend on the processing

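No paired analysis was possible because each time had 1 array, and for the same reason no replicate could be left out. Fcgr1, Fcgr3 and Fcrls kept their calls against 0 h under all 10 alternatives, with log2 differences at 24 h of -3.76 to -2.83, -3.68 to -2.70 and -4.54 to -3.57. Each of these genes has 1 probe set, without a multi-transcript mark and above the floor on all arrays. The floor at the 20th percentile, no floor, the mean of probe sets and leaving out multi-transcript probe sets therefore could not change their values. The lower floor and no floor could not change Fcgr2b either. Fcgr2b was 2-fold lower at 24 h under 8 of 9 alternatives (-1.33 to -0.38) and at 72 h against 24 h under 9 of 9 (-1.89 to -1.67); it has no probe set without a multi-transcript mark. On the deposited scale 3 members were called lower at 24 h, and the members' median was -2.70 at 24 h and -2.57 at 72 h against 0 h. With the floor at the 60th percentile Fcgr1 was not measured at 72 h against 24 h. The members' median in that comparison was then -0.49 over 4 measured members, and the step of Fcrls was -1.06. Without multi-transcript probe sets 1 of 4 members was lower in that comparison. Over all genes, 1890 were called at 24 h against 0 h, 1420 at 72 h against 24 h and 2163 at 72 h against 0 h. The deposited scale gave 3616 for the first and 3440 for the last. No floor gave 3904, 3382 and 4266. The floor at the 20th and 60th percentile gave 2248 and 927 at 72 h against 24 h. The share of calls that were higher, 58.8% at 24 h against 0 h, was 91.3% on the deposited scale, 46.9% after quantile normalization and 42.2% after trimmed mean scaling. At 72 h against 0 h it was 49.4%, and 86.8% on the deposited scale; at 72 h against 24 h it was 40.9%, and 30.8% with hybridization control scaling. The deposited scale differs by the median shift of 0.73 at 24 h and 0.77 at 72 h; other causes were not tested.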

Other observations

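Genes next to the receptors on their chromosomes, by RefSeq order (GRCm38.p6, 3 protein-coding genes to each side), were examined after the receptor values were known. On chromosome 1, Fcgr2b, Fcgr4 and Fcgr3 are neighbours in that order. Their log2 differences at 24 h against 0 h were -1.11, -1.26 (a bound, since Fcgr4 was below the floor at 24 h) and -3.42. Between 24 and 72 h those of Fcgr2b and Fcgr3 were -1.76 and 0.08, so these genes had different courses. Fcgr4 was near or below the floor (70.7, 20.4 and 52.8 at 0, 24 and 72 h). Its 24 h value does not set it apart from Fcgr2b. Sdhc, a subunit of succinate dehydrogenase 2 places beyond Fcgr3, went the other way and was 2.34-fold higher at 72 h than at 0 h. On chromosome 3, the gene next to Fcrls is Cd5l, which encodes a secreted protein of macrophages. Cd5l had signals of 762 at 0 h, 58.5 at 24 h and 204 at 72 h, so it was 13.0-fold lower at 24 h against 0 h, as Fcrls was lower, but 3.49-fold higher at 72 h against 24 h, where Fcrls was 3.05-fold lower. Cd1d1, 2 places to the other side, differed by -0.17 at 24 h against 0 h. On chromosome 7, Rcn3, the gene next to Fcgrt, was at least 5.82-fold higher at 72 h than at 0 h, when Fcgrt was 1.96-fold lower, and Rpl13a, 2 places to the other side, had a log2 difference of 0.37 at 24 h against 0 h.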
